A study of Homo sapiens with 24 samples.

Results

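The libraries described here came from K562 cells, a human erythroleukaemia line, in which the start site of GATA1 was targeted with either of 2 single guide RNAs (sgRNAs). They were chosen by their label, as all libraries with an sgRNA against that start site, and make up 6 of the 24 libraries of the series: 3 with GATA1TSS-Guide1 and 3 with GATA1TSS-Guide2, called Guide1 and Guide2 below. Every cell population in the series, controls included, could express a nuclease-dead Cas9 joined to the KRAB repressor domain from a promoter switched on by doxycycline, was transduced with its sgRNA and received doxycycline for 24 hours. The 12 control libraries (NC) carried 4 non-targeting sgRNAs with 3 replicates each. Polyadenylated RNA was sequenced from 10000 lysed cells per library. The series calls the replicates biological. The labels do not say what separated them, so the p-values measure the spread between these libraries. In such bulk RNA, fewer cells with a gene active and less of its RNA in each cell cannot be told apart.

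GATA1 is a zinc-finger transcription factor that binds short GATA sequences and, in a complex with TAL1, LMO2 and LDB1, activates the genes of red cell development, among them those for globins, heme enzymes, membrane proteins and the factor KLF1. It is also known to oppose SPI1 (PU.1), the main regulator of myeloid cells. A pair of sgRNAs that share a target but leave unequal amounts of its RNA allows gene expression to be compared at unequal GATA1 levels. It also shows which genes do not follow that order. Each level was carried by its own sgRNA, so the GATA1 level and anything else particular to that sgRNA cannot be told apart.

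Promoters of 4 genes on which the results turn are shown from 250 bases before to 50 after the RefSeq start site on GRCh38.p14, 5′ to 3′ on the gene's strand. GATA1 is the targeted gene, KLF1 and ALAS2 were lower with Guide2, and ZBTB1 was lower with Guide1. Capitals mark the GATA letters AGATAA or TGATAA, and likewise AGATAG or TGATAG, on either strand, which do not overlap each other here. They occur in 25.5% of the 27305 promoters of the same length in the table. The GATA1 promoter (chrX:48786340-48786639, plus strand) and the ZBTB1 promoter (chr14:64503637-64503936, plus strand) hold 0 such matches in this window, the KLF1 promoter (chr19:12887152-12887451, minus strand) holds 2 and the ALAS2 promoter (chrX:55030928-55031227, minus strand) holds 1. The sequences of the sgRNAs themselves were not used here.
GATA1: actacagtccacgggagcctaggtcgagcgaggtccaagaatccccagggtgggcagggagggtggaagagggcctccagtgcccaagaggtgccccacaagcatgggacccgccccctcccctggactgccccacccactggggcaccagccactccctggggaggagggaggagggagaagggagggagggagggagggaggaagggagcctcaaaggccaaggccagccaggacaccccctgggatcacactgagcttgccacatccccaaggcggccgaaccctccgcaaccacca
KLF1: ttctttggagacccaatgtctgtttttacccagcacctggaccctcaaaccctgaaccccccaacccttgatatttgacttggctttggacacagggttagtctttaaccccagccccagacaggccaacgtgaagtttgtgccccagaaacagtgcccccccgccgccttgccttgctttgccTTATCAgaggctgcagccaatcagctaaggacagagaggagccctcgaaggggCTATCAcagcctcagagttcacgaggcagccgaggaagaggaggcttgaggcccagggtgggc
ALAS2: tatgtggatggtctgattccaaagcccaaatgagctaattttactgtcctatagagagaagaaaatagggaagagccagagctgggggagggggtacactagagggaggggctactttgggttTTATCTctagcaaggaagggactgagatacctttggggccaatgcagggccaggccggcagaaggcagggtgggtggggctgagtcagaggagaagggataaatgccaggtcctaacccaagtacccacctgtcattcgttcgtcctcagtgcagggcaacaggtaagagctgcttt
ZBTB1: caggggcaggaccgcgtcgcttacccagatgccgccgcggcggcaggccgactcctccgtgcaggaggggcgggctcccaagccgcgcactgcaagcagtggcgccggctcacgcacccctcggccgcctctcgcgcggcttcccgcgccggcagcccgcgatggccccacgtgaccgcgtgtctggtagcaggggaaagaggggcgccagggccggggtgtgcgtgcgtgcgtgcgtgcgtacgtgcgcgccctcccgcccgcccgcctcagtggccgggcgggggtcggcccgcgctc

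Depth was even except for 1 library. Total counts were 20837877, 19755263 and 19204390 for replicates 1 to 3 of Guide1, and 23205811, 4290343 and 20625672 for those of Guide2. Replicate 2 of Guide2 had a count in 14449 gene entries, against 16403 to 16830 in the other 5. On principal component 1 of the 6 libraries (53.5% of the variance) this library stood at 45.5 and the others between -14.4 and -2.07. Component 2 (21.2%) held Guide1 at 3.86 to 13.7, replicates 1 and 3 of Guide2 at -17.7 and -18.5, and the shallow library at 6.93. Its log2 levels differed from those of the other Guide2 libraries with an SD of 0.334 and 0.344 across genes, while replicates 1 and 3 of Guide2 differed by 0.149 and pairs of Guide1 by 0.164 to 0.220. Results that rest on it are given with and without it. The chosen libraries expressed the erythroid markers of their labelled line, with HBE1, an embryonic globin gene, at 1612 to 2887 CPM (counts scaled to a common library total).

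GATA1 was lower with Guide2 in every library. Its level, in CPM scaled by TMM (edgeR's correction for library composition), was 130.4, 96.2 and 123.2 with Guide1 and 60.2, 42.1 and 57.0 with Guide2, beside 281 to 395 with a median of 370 in the 12 control libraries. The 3 groups did not overlap, and within each sgRNA replicate 2 was lowest. On average 32.1% of the control level was left with Guide1 and 14.6% with Guide2. Guide1 thus left 2.15-fold more GATA1 RNA than Guide2, a log2 difference (Guide2 minus Guide1, as for every difference below) of -1.10 (SE 0.11, adjusted p = 2.59e-06 by edgeR's quasi-likelihood test with Benjamini-Hochberg adjustment). With each of the 6 libraries left out in turn the difference stayed between -1.23 and -0.99 and passed each time. GATA1 lies at chrX:48644982-48652717 on hg19, the build of the files, with up to 6 exons in the deposited gene models.

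**Figure D1:**
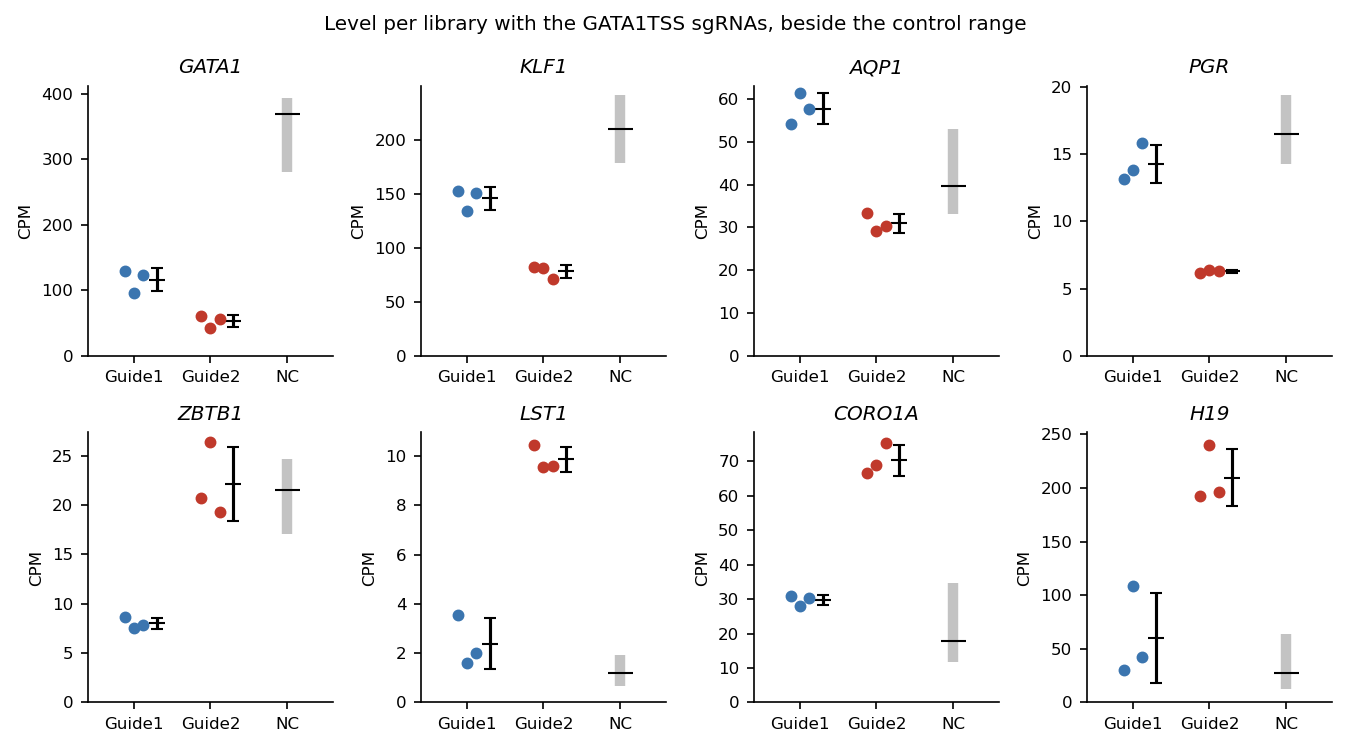
Level in CPM of 8 genes with Guide1 (blue points, 3 libraries), Guide2 (red points, 3 libraries) and in the 12 control libraries (grey bar from the lowest to the highest, line at the median). Black marks beside the points give the mean and SD. GATA1, KLF1, AQP1 and PGR are lower with Guide2, while ZBTB1, LST1, CORO1A and H19 are higher. For ZBTB1 all Guide1 libraries lie below the control range.

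Across the transcriptome 457 of 13147 tested genes differed between the sgRNAs at an edgeR adjusted p under 0.05, or 3.48%, and these are called below. Of them 233 were higher with Guide2 (1.77%) and 224 lower (1.70%). The higher genes had larger differences, with a median of 0.75 against -0.51 for the lower ones and 0.00 for all genes tested, and lower levels, with a median of 19.8 CPM against 49.2. Of the 13147 genes, 170 passed the filter on low counts only through GATA1TSS libraries. Among the other 12977, 223 were called higher and 224 lower, and these medians were not recomputed for them. More than 1 on the log2 scale separated the sgRNAs in 75 of the higher and 23 of the lower genes. The 3 libraries of each sgRNA did not overlap in 230 of the 233 and 223 of the 224, where 12.8% and 12.9% of all tested genes were higher and lower without overlap. With upper-quartile scaling 300 were higher and 186 lower, which moved the share of higher calls from 51.0% to 61.7%. Without the shallow library 283 genes were called (2.15%), 158 higher (1.20%) and 125 lower (0.951%), and 255 of them were among the 457. No gene of the 457 changed sign in any alternative fit.

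The count differed with the libraries that entered the fit, and the cause was not tested. The 6 libraries alone gave 574 calls (4.37%; 2.42% higher and 1.95% lower). The 12 libraries with a targeting sgRNA gave 1049 (7.98%; 3.81% and 4.17%). The 5 that remain of the 6 without the shallow library gave 1083 (8.24%; 4.31% and 3.92%), in a fit added after the data had been seen. Leaving out 1 of the 6 libraries from the fit over all 24 gave 181 to 376. In all 17 alternative fits that include every one of the 13147 genes 115 of the 457 were called, 68 higher and 47 lower.

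**Figure D2:**
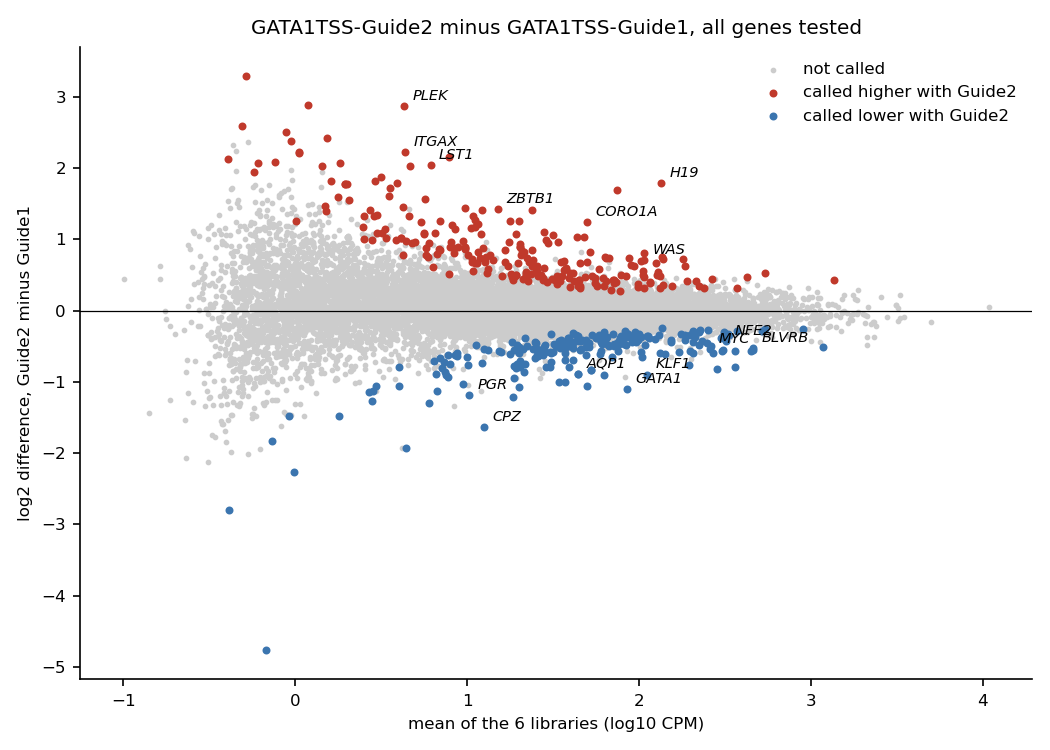
Log2 difference between the sgRNAs against the mean level of the 6 libraries (log10 CPM) for 13147 genes. Grey points were not called, red points were called higher with Guide2 and blue points lower. Differences spread widely at low levels, and the 224 lower genes lie closer to 0 than the 233 higher ones at a median of -0.51 against 0.75.

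Each sgRNA was also set against the controls, which the 2 comparisons share. Against all 12 control libraries 1579 genes were called with Guide1 (12%), 817 higher (6.21%) and 762 lower (5.80%), and 3259 with Guide2 (24.8%), 1630 higher (12.4%) and 1629 lower (12.4%). The controls themselves were split: on principal component 1 of the control libraries (26.1% of their variance) NC-Guide3 and NC-Guide4 each had 2 libraries, replicates 2 and 3, far from the rest. Against these 4 libraries, a choice made after seeing the data, 40 genes were called with Guide1 (0.304%), 25 higher (0.190%) and 15 lower (0.114%), and 2471 with Guide2 (18.8%), 1214 higher (9.23%) and 1257 lower (9.56%). The difference between the sgRNAs uses no control level. The part in it of what separates the control libraries was not tested.

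KLF1 and 4 other erythroid regulators were lower with Guide2. Of 28 tested GATA1 partners and erythroid regulators, 5 were called lower and 0 higher, beside 1.70% and 1.77% of all genes, and the list median was -0.10. KLF1, the erythroid Krüppel-like factor that activates the adult globin program, stood at 152.4, 133.8 and 150.6 CPM with Guide1, at 82.2, 81.5 and 71.4 with Guide2 and at 178 to 241 in the controls. The 3 groups did not overlap, as for GATA1. KLF1 differed by -0.90 (SE 0.09, edgeR adjusted p = 2.60e-06), and 70.1% of its control level was left with Guide1 and 37.7% with Guide2. LDB1, the bridging protein of the GATA1 complex, stood at 285, 247 and 246 CPM with Guide1 and at 191, 190 and 179 with Guide2, a difference of -0.48 (SE 0.10, edgeR adjusted p = 0.00476). For LDB1 1 Guide1 library lay within the control range of 252 to 357 CPM and the other 2 just below it, while all Guide2 libraries lay far below.

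NFE2, the large subunit of the NF-E2 factor that acts at globin genes, was at 376, 368 and 368 CPM with Guide1 and at 299, 236 and 290 with Guide2 (-0.42, SE 0.08, edgeR adjusted p = 0.00215). The shallow library was lowest, and the sgRNAs did not overlap without it either. KLF3, a repressor of the same family as KLF1, differed by -0.36 (SE 0.08, edgeR adjusted p = 0.00807), with KLF3-AS1 antisense to its exons. TAL1, the DNA-binding partner in the complex, differed by -0.34 (SE 0.09, edgeR adjusted p = 0.0259), and was called in 12 of these 17 alternative fits. The call was lost without any 1 of the Guide1 libraries. Without the shallow library its edgeR adjusted p was 0.131, which leaves 4 regulators called. LMO2, the adaptor of the complex, stood at 0.18 (edgeR adjusted p = 0.44) and ZFPM1, the GATA1 cofactor FOG1, at -0.03 (0.94). GATA2, the factor that precedes GATA1 in blood development, had 286, 250 and 272 CPM with Guide1 and 240, 221 and 243 with Guide2 (-0.20, edgeR adjusted p = 0.411).

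Heme enzymes were called in both directions. Of 12 tested genes of heme biosynthesis 2 were called lower and 1 higher, beside 1.70% and 1.77% of all genes, with a median of -0.26. ALAS2, the erythroid enzyme of the first step, was at 327, 416 and 355 CPM with Guide1 and at 286, 200 and 248 with Guide2, with no overlap (-0.57, SE 0.11, edgeR adjusted p = 0.00413). The controls, at 314 to 482 CPM, enclosed all Guide1 libraries and lay above all Guide2 libraries. ALAD, the enzyme of the second step, was higher with Guide2, at 51.2, 39.4 and 51.1 CPM against 35.5, 36.5 and 36.2 (0.41, SE 0.10, edgeR adjusted p = 0.0234). Its call was lost in 5 of the 6 fits with a library left out, all but that without the shallow one, with an edgeR adjusted p of up to 0.130.

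Among 27 tested genes of the red cell membrane and blood groups 6 were called lower and 1 higher, with a median of -0.20. The shares over all genes were 1.70% and 1.77%. AQP1, the water channel of the red cell, was at 54.2, 61.4 and 57.6 CPM with Guide1 and at 33.4, 29.1 and 30.3 with Guide2 (-0.89, SE 0.12, edgeR adjusted p = 7.44e-05). The controls ran from 33.2 to 52.9 CPM, so that every Guide1 library lay above them and 2 of 3 Guide2 libraries below. SLC4A1, the anion exchanger band 3, was at 84.2, 81.9 and 79.8 CPM with Guide1 and at 61.4, 31.2 and 35.1 with Guide2 (-0.90, SE 0.19, edgeR adjusted p = 0.00790). Replicate 1 of Guide2 stood well above the other Guide2 libraries, and the call was lost without replicate 3 (edgeR adjusted p = 0.0629). EPB42, the pallidin protein that anchors band 3 to the skeleton, differed by -1.06 (SE 0.23, edgeR adjusted p = 0.00782), and by -0.84 without Guide2 replicate 1 (edgeR adjusted p = 0.0929). The carbonic anhydrase gene CA1 (-0.63), the glycophorin C gene GYPC (-0.43) and the tropomodulin gene TMOD1 (-0.35) were also called lower, CA1 not without Guide1 replicate 3 (edgeR adjusted p = 0.0579) and GYPC not in 5 of 6 fits with a library left out, with its highest edgeR adjusted p (0.0820) without the shallow one. CD44, a hyaluronan receptor, was the gene called higher (0.72, SE 0.18, edgeR adjusted p = 0.0229), a call lost without the shallow library (0.68, edgeR adjusted p = 0.0636) and in 4 other fits with a library left out.

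Of 20 tested genes of iron uptake, storage and sensing 2 were called lower and 0 higher, with a median of -0.14. The shares over all genes were 1.70% and 1.77%. BLVRB, a biliverdin reductase of erythroid cells, was at 535, 559 and 535 CPM with Guide1 and at 399, 336 and 397 with Guide2 (-0.52, SE 0.09, edgeR adjusted p = 0.000677). Of 10 tested globin and globin chaperone genes edgeR called 0 over 24 libraries, and 6 had an unadjusted p under 0.05, as did 17.7% of all genes. DESeq2 and limma-voom called 1 of the 10 each, beside 5.51% and 4.90% of all genes to which they gave an adjusted p. All 10 differences were negative, with a median of -0.40. The lowest p was that of HBE1, at 2161, 2887 and 2426 CPM with Guide1 and 1967, 1612 and 1744 with Guide2 (-0.49, SE 0.14, edgeR adjusted p = 0.0506). In the fit to the 6 libraries HBE1, HBG1 and HBG2 were called lower, and 4 of the 10 in the fit to the 12 libraries with a targeting sgRNA, beside 1.95% and 4.17% of all genes.

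**Figure D3:**
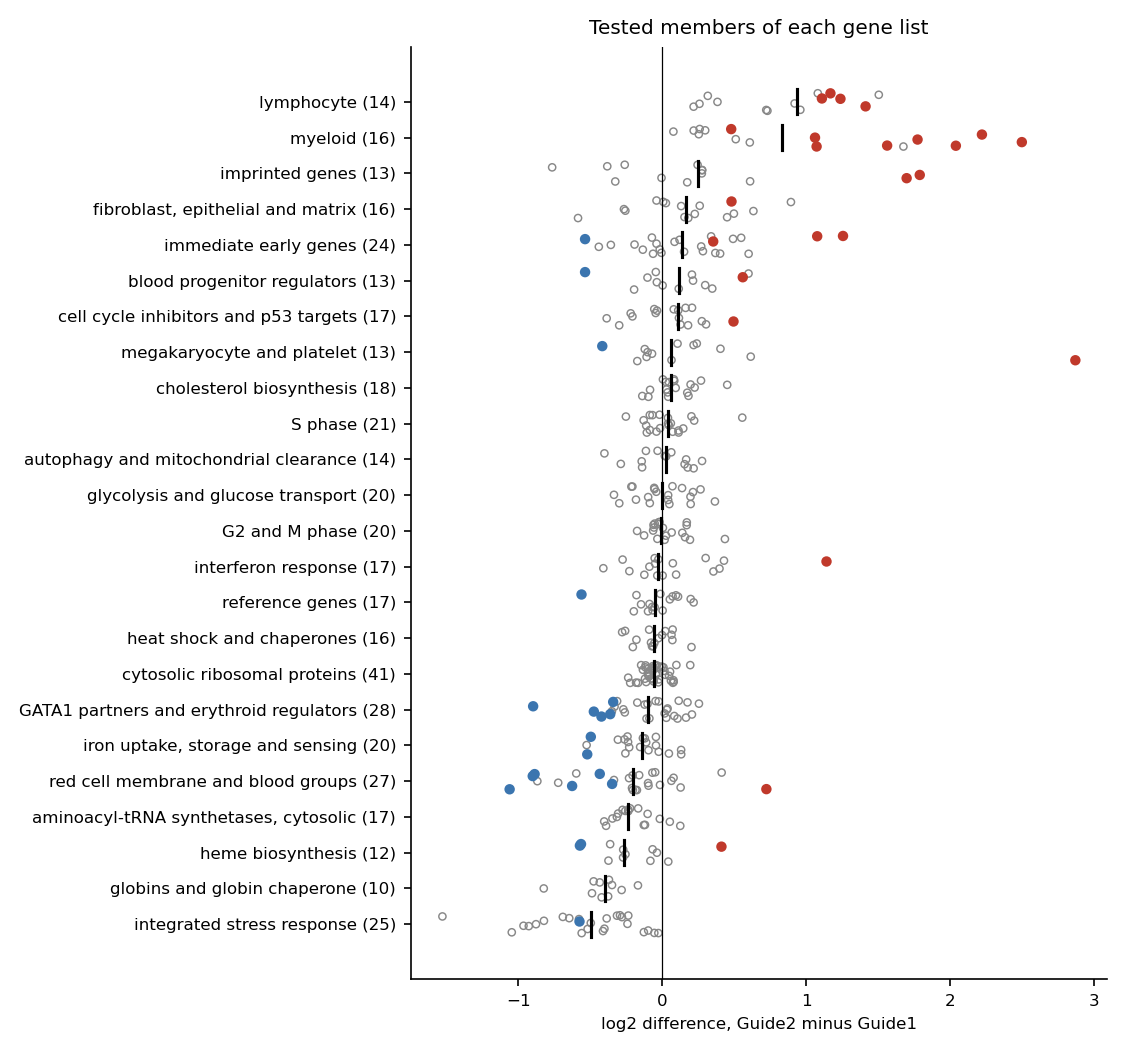
Log2 difference between the sgRNAs for each tested member of 24 gene lists (number tested in brackets), with the list median as a black bar. Red points were called higher with Guide2, blue points lower, and open points were not called. The myeloid and lymphocyte lists lie to the right, with medians of 0.84 and 0.94, and the globin and integrated stress response lists to the left, with medians of -0.40 and -0.50.

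A number of myeloid and lymphocyte genes were higher with Guide2. Of 16 tested myeloid genes 8 were called higher and 0 lower, with a median of 0.84 beside 0.00 over all genes. Of these 16, CD4 and NCF1 passed the filter on low counts only through GATA1TSS libraries. Among the other 14, 7 were called higher, with a median of 0.56, beside 1.72% of the 12977 genes that pass without the GATA1TSS libraries. Without the shallow library 7 of the 16 were called.

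LST1, a small leukocyte protein, was at 3.55, 1.61 and 2.02 CPM with Guide1 and at 10.5, 9.56 and 9.60 with Guide2, beside 0.664 to 1.93 in the controls. The Guide2 libraries agreed closely and lay above all others (2.04, SE 0.26, edgeR adjusted p = 5.19e-05). NCR3 overlaps LST1 exons on the opposite strand, so reads of the pair may be mixed. ITGAM, the integrin CD11b, was at 3.22, 2.62 and 2.59 CPM with Guide1 and at 6.84, 10.2 and 8.65 with Guide2 (1.56, SE 0.24, edgeR adjusted p = 0.000321), where the controls at 2.27 to 6.03 covered Guide1. Its neighbour ITGAX, the integrin CD11c, was at 2.22, 1.11 and 1.35 CPM against 8.05, 6.14 and 7.41 (2.22, SE 0.34, edgeR adjusted p = 0.000360). NCF1, a subunit of the phagocyte NADPH oxidase, was called at a mean under 5 CPM (2.50). NCF1 shares most of its sequence with other copies, and NCF1C was called as well (2.38).

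TYROBP, a signalling adaptor (1.07), AIF1, a calcium-binding protein of macrophages next to LST1 (1.06), and the lysozyme gene LYZ (0.48) were called too, TYROBP not without Guide1 replicate 2 or Guide2 replicate 1 (edgeR adjusted p of up to 0.0643). LYZ was at 67.7, 70.1 and 70.9 CPM with Guide1, within the control range of 60.1 to 89.8, and at 92.0, 113 and 88.8 with Guide2. Without the shallow library, its highest value, LYZ was not called (0.38, edgeR adjusted p = 0.0525), nor without Guide1 replicate 1 (0.0534). SPI1 itself was at 110, 101 and 104 CPM with Guide1 and at 132, 111 and 141 with Guide2, which did not overlap, but its difference of 0.30 did not pass (SE 0.15, edgeR adjusted p = 0.295). The myeloid defining markers CD14 and MPO were at 0.201 CPM or less in all 6 libraries. Summed over 6 myeloid markers (SPI1, CSF1R, CD14, LYZ, MPO and ITGAM), the level was 174 to 181 CPM with Guide1 and 231 to 238 with Guide2, most of it from SPI1 and LYZ.

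Of 14 tested lymphocyte genes 4 were called higher and 0 lower, beside 1.77% and 1.70% of all genes, with a median of 0.94. Without CD3E and CD79A, which passed the filter only through GATA1TSS libraries, 4 of 12 were called and the median was 0.83. CORO1A, an actin regulator of leukocytes, was at 30.9, 28.1 and 30.4 CPM with Guide1, within the controls at 11.8 to 34.7, and at 66.7, 68.9 and 75.2 with Guide2 (1.24, SE 0.21, edgeR adjusted p = 0.00129). A gene on the same strand, LOC606724, shares exon sequence with it. SLAMF6, a receptor of the SLAM family, was at 6.95, 5.54 and 7.35 CPM against 16.1, 20.02 and 17.5 (1.41, SE 0.25, edgeR adjusted p = 0.00159). PTPN22, a phosphatase of T cell signalling with an antisense partner, AP4B1-AS1, differed by 1.17, and the membrane protein gene EVI2B by 1.11, a call lost in 4 of 6 fits with a library left out, the shallow one included (0.93, edgeR adjusted p = 0.0971). CD3D, a T cell receptor subunit, was at 22.6, 30.6 and 20.4 CPM against 44.4, 33.7 and 42.3 and did not pass (0.73, edgeR adjusted p = 0.0624). The B cell marker MS4A1 was at 0.0518 CPM or less. The sum of 5 lymphocyte markers was 28.2 to 36.9 CPM with Guide1 and 43.2 to 53.9 with Guide2. The part of cells of these lineages in the differences was not tested.

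Megakaryocyte and progenitor genes held calls of either sign. Of 13 tested megakaryocyte genes 1 was called higher and 1 lower, with a median of 0.06. Of all genes 1.77% were called higher and 1.70% lower. PLEK, pleckstrin of platelets and leukocytes, was at 1.80, 0.504 and 0.725 CPM with Guide1 and at 7.22, 8.42 and 7.17 with Guide2 (2.87, SE 0.40, edgeR adjusted p = 8.61e-05), beside 0.222 to 1.27 in the controls. F2R, the thrombin receptor, was lower (-0.42, SE 0.11, edgeR adjusted p = 0.0254), a call lost in 4 of 6 fits with a library left out, with an edgeR adjusted p of 0.0622 without the shallow library. ITGA2B, the platelet integrin, differed by -0.07 (edgeR adjusted p = 0.853), and PF4 had a level of 0 in all 6 libraries. Of 13 progenitor regulators MEIS1 was called higher (0.56; 0.46 and not called without the shallow library, edgeR adjusted p = 0.116, nor in 3 other fits with a library left out) and MYC lower. MYC was at 314, 304 and 304 CPM with Guide1 and at 209, 208 and 218 with Guide2, against 373 to 458 in the controls (-0.54, SE 0.07, edgeR adjusted p = 7.76e-05). The 3 groups of libraries did not overlap for MYC, in the same order as for GATA1. KIT, the stem cell factor receptor, differed by 0.35 and did not pass (edgeR adjusted p = 0.304).

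Genes of the integrated stress response, which the factor ATF4 induces when amino acids are short, shared a sign but seldom passed over 24 libraries. Of 25 tested 1 was called lower and 0 higher, beside 1.70% and 1.77% of all genes. It was GDF15, a secreted stress cytokine, at 219, 199 and 200 CPM with Guide1 and 136, 130 and 147 with Guide2 (-0.58, SE 0.14, edgeR adjusted p = 0.0158). That call was lost in 3 of 6 fits with a library left out. Without the shallow library GDF15 differed by -0.54 (edgeR adjusted p = 0.0622) and 0 of the 25 were called over the remaining 23 libraries. All 25 differences were negative, with a median of -0.50, and 15 were without overlap, where 12.9% of all genes were lower without overlap. In the 6 libraries alone 14 were called lower and 0 higher, where 1.95% of all genes were called lower, and without the shallow library these libraries gave 18 of 25, where 3.92% were. ASNS, asparagine synthetase, was at 201, 177 and 183 CPM with Guide1 and at 109, 136 and 115 with Guide2, a difference of -0.65 with an edgeR adjusted p of 0.335 over 24 libraries and 0.00271 over the 6. The controls ran from 253 to 1122 CPM for ASNS, the spread that the fit over 24 libraries takes in. PHGDH, which opens serine synthesis, was at 143, 82.2 and 102 CPM against 57.2, 61.4 and 54.7, with 117 to 666 in the controls (-0.93; edgeR adjusted p = 0.159 over 24 and 0.00544 over the 6). Of 17 cytosolic aminoacyl-tRNA synthetases, which charge tRNAs, edgeR called 0 over 24 libraries, and the median was -0.24. Of the 17, 5 had an unadjusted p under 0.05, beside 17.7% of all genes. DESeq2 called 2 and limma-voom 0, beside 5.51% and 4.90% of all genes to which they gave an adjusted p. Over the 6 libraries edgeR called 3 of the 17, all lower (AARS, GARS and SARS), beside 1.95% of all genes called lower. It called 8 lower over these without the shallow one and 9 over the 12 with a targeting sgRNA, beside 3.92% and 4.17% of all genes.

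The other lists held 0 to 4 calls each. Of all genes 1.77% were called higher and 1.70% lower. Of 13 tested imprinted genes 2 were called higher, H19 and its antisense partner HOTS, and 0 lower. HOTS overlaps H19 exons on the opposite strand, so the 2 calls may rest on the same reads. Of 24 immediate early genes 3 were called higher, PHLDA1 (1.26), FOSL2 (1.08) and IER5 (0.35), and MYC lower, with a median of 0.14. PHLDA1, a pleckstrin homology protein induced by growth signals, was at 9.41, 13.7 and 11.96 CPM against 26.5, 31.2 and 26.99 (SE 0.22, edgeR adjusted p = 0.00125), and kept its call with each library left out. FOSL2 lost its call in 3 of these 6 fits (edgeR adjusted p of up to 0.153, with differences of 0.84 to 1.55) and IER5 in 4 (up to 0.158). TRIM22 of 17 interferon response genes (1.14), SESN1 of 17 p53 targets and cell cycle inhibitors (0.49) and PLAUR of 16 fibroblast, epithelial and matrix genes (0.48) were each the only call of their list, and the PLAUR call was lost with any of the 6 libraries left out (edgeR adjusted p of up to 0.125). That of SESN1 was lost in 4 such fits (0.108 without the shallow library) and that of TRIM22 in 3 (up to 0.0998). In 7 lists edgeR called 0 genes: S phase (21 tested), G2 and M phase (20), cytosolic ribosomal proteins (41), glycolysis (20), autophagy (14), cholesterol biosynthesis (18) and heat shock (16). Of their 150 tested genes 18 had an unadjusted p under 0.05, beside 17.7% of all genes. DESeq2 called 4 of them and limma-voom 3, beside 5.51% and 4.90%. Their medians lay between -0.06 and 0.06. Of 17 reference genes 1 was called lower.

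ZBTB1 ran against the order of GATA1. This zinc-finger repressor gene, needed for lymphoid development, was at 8.61, 7.55 and 7.87 CPM with Guide1 and at 20.7, 26.4 and 19.3 with Guide2. The controls ran from 17.1 to 24.7 CPM, so every Guide1 library lay below every control, while the Guide2 libraries lay in or above the control range. ZBTB1 differed by 1.43 (SE 0.14, edgeR adjusted p = 2.59e-06) and kept its call with each library left out. Against the shared controls it differed by -1.41 with Guide1 (edgeR adjusted p = 4.69e-08) and by 0.02 with Guide2 (0.943), and against the 4 control libraries that stood apart by -1.28 and 0.14. LOC102723809, which lies antisense to ZBTB1 exons, was at 6.67, 6.24 and 6.47 CPM with Guide1 and at 15.4, 17.7 and 14.3 with Guide2 (1.27, SE 0.15, edgeR adjusted p = 9.58e-06), and its reads may be those of ZBTB1. ZBTB25, whose start lies beside that of ZBTB1 on the opposite strand and which also shares exon sequence with it, was at 55.5, 63.8 and 57.6 CPM against 64.4, 56.7 and 65.8, with overlap (0.09, edgeR adjusted p = 0.613). ZBTB1 lies at chr14:64971292-65000408 on hg19, with up to 3 exons.

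**Figure D4:**
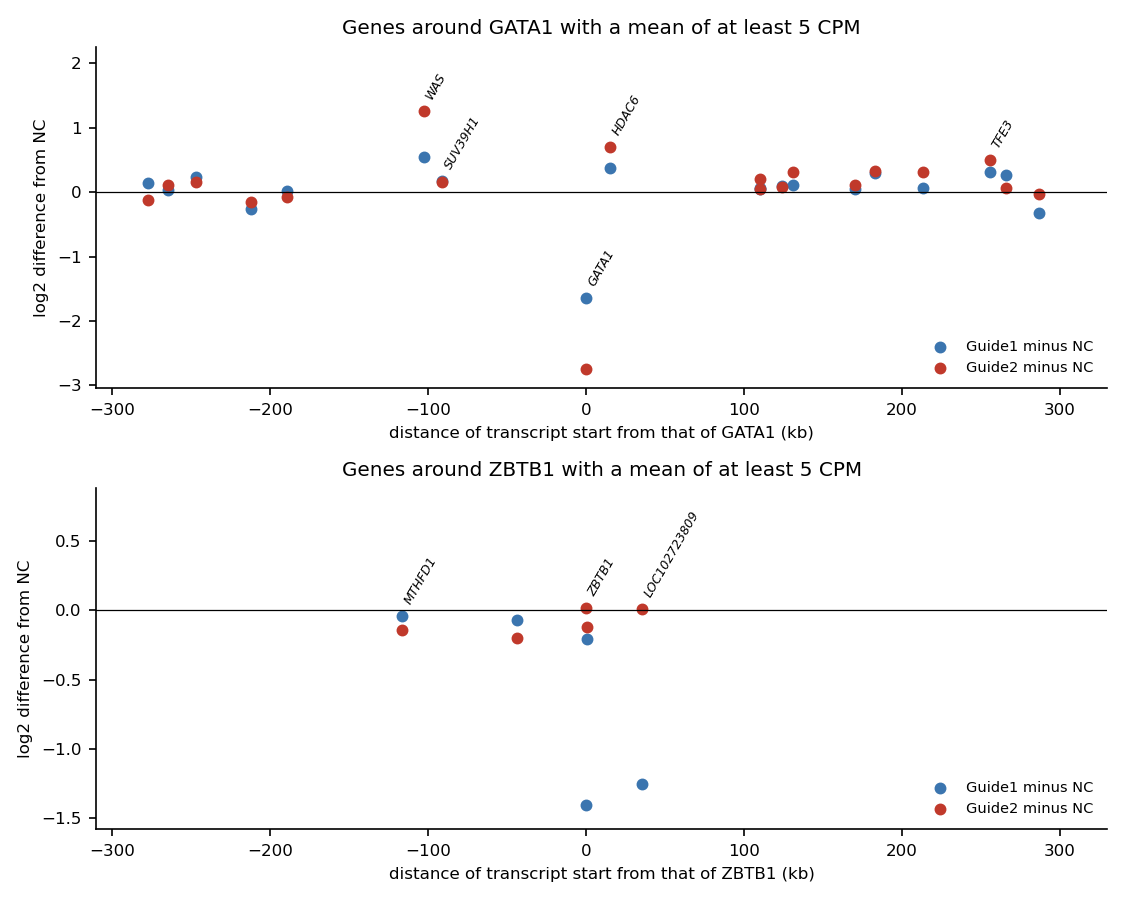
Log2 difference of Guide1 (blue) and Guide2 (red) from the controls, for genes that averaged 5 CPM or more, against the distance of their transcript start from that of GATA1 (top) and of ZBTB1 (bottom) in kb. Around GATA1 both sgRNAs lie far below 0 at the target itself, at -1.64 and -2.74. Around ZBTB1 only Guide1 lies below -1, at ZBTB1 (-1.41) and LOC102723809 (-1.26), with Guide2 near 0 at both.

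Other genes also left the control range on 1 side with Guide1 and not with Guide2. SCPEP1, a serine carboxypeptidase (0.38), CFI, complement factor I, the zinc-finger gene ZNF117 (0.46) and LOC100631378 were called and lay below all 12 control libraries in every Guide1 library but not in every Guide2 library, as did ZBTB1 and LOC102723809. CTU2, a tRNA thiolation enzyme (-0.43), and AQP1 lay above all controls in every Guide1 library, with Guide2 lower and not above them. With 1 of the 6 libraries left out ZNF117 was never called and CTU2 in 1 fit only, with edgeR adjusted p-values of 0.147 and 0.157 without the shallow library. SCPEP1 lost its call in 3 such fits (up to 0.114) and LOC100631378 in 4 (up to 0.126). CFI had 2 counts in each Guide1 library and 32, 2 and 21 with Guide2. These genes were picked after their values were seen. For none of the 457 did all libraries of 1 sgRNA lie below and all of the other above the controls.

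Near GATA1, 74 genes have a transcript start within 1 Mb and 69 of them were tested, 22 being GAGE copies. Of these 69, 3 were called higher and 2 lower, beside 1.77% and 1.70% of all genes. WAS, an actin regulator of blood cells, was at 83.2, 80.9 and 78.9 CPM with Guide1 and at 123, 138 and 137 with Guide2, beside 42.98 to 71.2 in the controls (0.71, SE 0.14, edgeR adjusted p = 0.00290). The 3 groups of libraries did not overlap for WAS. SSX3, a cancer-testis gene with close copies, was at 19.01, 18.4 and 18.2 CPM against 31.8, 25.7 and 32.3 (0.71, SE 0.12, edgeR adjusted p = 0.00135), and SSX6 differed by 0.61, a call lost in 4 of 6 fits with a library left out (edgeR adjusted p of up to 0.122). MAGIX was lower besides GATA1, at 32.0, 18.9 and 32.2 CPM against 15.4, 10.0 and 12.4 (-1.08, SE 0.23, edgeR adjusted p = 0.00854), a call lost without replicate 1 or 3 of Guide1 or replicate 3 of Guide2 (up to 0.0602). HDAC6, the deacetylase gene next to GATA1, was at 230, 240 and 212 CPM with Guide1 and at 293, 252 and 300 with Guide2, above the controls at 129 to 205. The difference of 0.31 did not pass (SE 0.10, edgeR adjusted p = 0.0977).

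Of the called genes that averaged 5 CPM or more without overlap between the sgRNAs, those highest with Guide2 relative to Guide1 were CCDC173 (2.16), LST1 (2.04), the imprinted RNA H19 (1.79) with its antisense partner HOTS (1.70), ITGAM and MMRN2 (1.45). Reads of H19 and HOTS may be mixed. H19 was at 30.3, 108 and 42.6 CPM with Guide1 and at 192, 240 and 196 with Guide2, beside 12.3 to 63.7 in the controls. Replicate 2 of Guide1 stood far above the other Guide1 libraries and above all controls, and the difference ran from 1.46 to 2.52 with 1 library left out, each time called. CCDC173 was at 2.65, 3.63 and 1.86 CPM against 9.60, 20.02 and 9.50, with the shallow library highest, and kept its call without it. CALB1, the calcium-binding protein calbindin, was at 10.6, 15.1 and 13.1 CPM against 35.6, 34.6 and 33.6, beside 3.70 to 9.33 in the controls (1.42, SE 0.20, edgeR adjusted p = 0.000104). TSC22D3, a glucocorticoid-induced leucine zipper gene, was at 12.1, 7.55 and 11.5 CPM against 23.03, 28.4 and 24.5 (1.26, SE 0.18, edgeR adjusted p = 0.000107). LINC01094 (1.32), GNG11 (1.26) and TBC1D10C (1.24) were also among the 15 largest. GNG11 lost its call without Guide1 replicate 1 or 3 or Guide2 replicate 1 (edgeR adjusted p of up to 0.139), and TBC1D10C without replicate 1 of either sgRNA (up to 0.0731).

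Among called genes that averaged 5 CPM or more without overlap, the largest falls were those of CPZ, BEST3, UNC5B, PGR and SERINC2. PGR, the progesterone receptor, was at 13.1, 13.8 and 15.8 CPM with Guide1, within or just below the controls at 14.3 to 19.4, and at 6.17, 6.37 and 6.32 with Guide2 (-1.18, SE 0.13, edgeR adjusted p = 3.25e-06). The Guide2 libraries lay below all others, and the call held with each library left out. LOC101054525 lies antisense to PGR exons, so its reads may be counted with it. CPZ, a carboxypeptidase, was at 28.2, 8.56 and 20.3 CPM against 5.84, 5.92 and 6.56 (-1.63, SE 0.39, edgeR adjusted p = 0.0178), so that replicate 2 of Guide1 lay near Guide2, and the call was lost without replicate 1 or 3 of either sgRNA (edgeR adjusted p of up to 0.146). UNC5B, a netrin receptor, was at 38.9, 13.0 and 25.7 CPM against 11.2, 11.4 and 11.2 (-1.21), and its call was lost in 5 of 6 such fits (up to 0.233; 0.0636 without the shallow library). GUCA1B (-0.90) lost its call in the same 5 (up to 0.196). BEST3 (-1.30) lost it in 3 (up to 0.0770) and SERINC2 (-1.13) without Guide2 replicate 1 (0.0727).

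AMHR2, the receptor of anti-Müllerian hormone, was at 78.4, 57.7 and 69.1 CPM against 38.6, 22.8 and 33.4 (-1.06, SE 0.17, edgeR adjusted p = 0.000739). B4GALNT4, a glycosyltransferase, was at 51.9, 52.5 and 45.2 CPM with Guide1 and at 28.4, 20.9 and 23.7 with Guide2 (-1.0, SE 0.14, edgeR adjusted p = 7.76e-05), and the controls, at 27.4 to 48.4, overlapped with 1 library of each. ENPP3, a nucleotide pyrophosphatase of basophils (-1.0), GYLTL1B, a glycosyltransferase (-1.03), and CSPG5, a proteoglycan (-0.93), were lower as well.

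**Figure D5:**
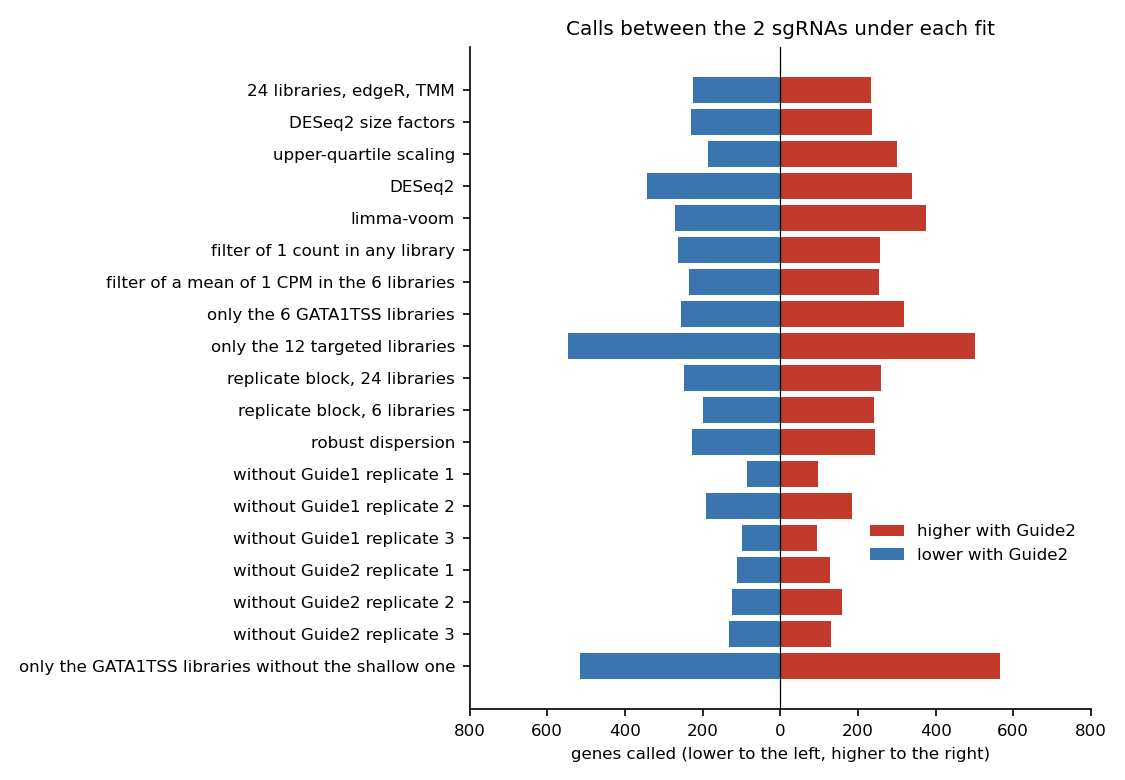
Number of genes called higher (red, to the right) and lower (blue, to the left) with Guide2 under the reported fit over 24 libraries (top) and each alternative. Counts run from 181 without Guide1 replicate 1 to 1083 in the GATA1TSS libraries without the shallow one, and the 457 of the reported fit lie between.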

How the data were processed

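Raw read counts by gene symbol were deposited by the authors in a single table, beside RefSeq gene models on hg19 that gave the gene positions. The submitters' processing notes name hg19, TopHat2 2.0.8, Bowtie2 2.1.0, SAMtools 0.1.19 and Picard, without role or order. Neither the counting tool nor its use of strand is given in the sources used here, which makes overlapping and antisense genes uncertain. Of 21925 gene entries, 21 have a date for a symbol and are not named.

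Counts were fitted in R 4.3.3 with edgeR 4.0.16 (1 coefficient per sgRNA over 24 libraries, TMM scaling, quasi-likelihood F tests). edgeR's filter (minimum count 10, minimum total count 15, proportion 0.7) left 13147 genes, over which p-values were adjusted by Benjamini-Hochberg. SEs were derived from the F statistic. Levels are CPM on TMM-scaled totals. Total counts of 4290343 to 23205811 in the 6 libraries set the precision of low values. The test was run on simulated data first. The rule named GATA1, HDAC6, called genes within 1 Mb of GATA1, the 15 largest higher and 15 largest lower called genes at a mean of at least 5 CPM without overlap, the 5 smallest p and up to 4 called members per list. Other genes were named after their values were seen. Some genes that the rule names are counted but not reported here by name. The members, the 24 gene lists and the rule were chosen with earlier results of these data known. Alternatives used DESeq2 1.42.0, limma 3.58.1 (voom), other scalings, filters, library sets, a replicate block and each library left out. No pair of the 6 libraries differed by as little as sampling noise.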

Additional observations from a re-analysis of the deposited data

How the results depend on the processing

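GATA1 kept its direction and its call in every alternative run, and no gene of the 457 changed sign. The count of called genes moved by over 1.5 times with the 12 libraries of targeting sgRNAs alone (1049; 501 higher and 548 lower), in the GATA1TSS libraries without the shallow one (1083; 567 and 516), and in 5 of the 6 fits with a library left out. These 6 gave 181 to 376 calls, 95 to 184 higher and 85 to 192 lower, the most without Guide1 replicate 2. Without Guide1 replicate 1 it was 181, without Guide1 replicate 3 193, without Guide2 replicate 1 238, without Guide2 replicate 2 283 and without Guide2 replicate 3 261. Called genes higher with Guide2 numbered 374 with limma-voom, and lower ones 344 with DESeq2. The cause of these changes was not tested, nor was the part of the smaller number of libraries in the fits that leave 1 out. Other scalings, filters and a robust dispersion gave 465 to 519 calls.

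Same-numbered libraries of the sgRNAs did not deviate together (correlations of 0.04, -0.06 and -0.04 across 13147 genes), so the numbers were not taken as pairs. With the replicate number as a block, 507 genes were called over 24 libraries (260 higher and 247 lower) and 438 over the 6 (240 and 198), of which 441 and 312 were among the 457. Samples did not all correlate best with their own number.

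Depth limits the low genes: in the shallow library 10 counts correspond to over 2 CPM, so differences of genes at a few CPM rest mainly on the other 5 libraries. Groups of 3 are too small for a check of single outlying libraries.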

Other observations

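Several gene families and neighbours were called with the same sign. They were picked after their values were seen and are given as values. The 3 aldo-keto reductase genes AKR1C1 (-0.39), AKR1C2 (-0.48) and AKR1C3 (-0.60), which reduce steroids and prostaglandins and share much of their sequence, were lower with Guide2. With 1 of the 6 libraries left out AKR1C1 lost its call in 4 fits (edgeR adjusted p of up to 0.141), AKR1C2 in 1 (0.0542) and AKR1C3 in 2 (up to 0.0801). AKR1C3 was at 31.1, 45.0 and 35.8 CPM with Guide1 and at 25.2, 25.03 and 23.8 with Guide2. The neighbouring carnitine transporter genes SLC22A4 (-0.79) and SLC22A5 (-0.59) were lower as well, SLC22A4 at 50.4, 47.2 and 50.8 CPM against 30.6, 33.2 and 23.9, a call lost without Guide2 replicate 3 (edgeR adjusted p = 0.0549). Higher with Guide2 were the serine dehydratase SDS (1.78) and its neighbour SDSL (0.84), and the adhesion receptor genes ADGRG1 (1.55) and ADGRG5 (1.88). SDS lost its call in 5 such fits (edgeR adjusted p of up to 0.166) and ADGRG1 in 4 (up to 0.168), while SDSL and ADGRG5 kept theirs in all 6. ALOX5, the 5-lipoxygenase of leukocytes that starts leukotriene synthesis, was at 78.9, 60.2 and 58.9 CPM with Guide1 and at 122, 97.4 and 109 with Guide2 (0.74, SE 0.14, edgeR adjusted p = 0.00327). All Guide2 libraries lay above the controls, at 39.9 to 85.2 CPM, and all Guide1 libraries within them.

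Among weakly expressed genes, not every leukocyte gene was higher with Guide2. MS4A3, a gene of granulocyte and basophil precursors, was at 9.32, 4.53 and 7.30 CPM with Guide1 and at 2.09, 1.37 and 1.76 with Guide2 (-1.93, SE 0.49, edgeR adjusted p = 0.0255), within a control range of 1.74 to 13.0 for 2 of the 3 Guide2 libraries and all of Guide1. This call was lost in 5 of 6 fits with a library left out (edgeR adjusted p of up to 0.129; 0.0646 without the shallow library). HAMP, the iron hormone hepcidin, was at 0.851, 1.61 and 2.38 CPM against 0.2503, 0.455 and 0.380 (-2.26, SE 0.43, edgeR adjusted p = 0.00290). CCL26, a chemokine that attracts eosinophils, had 45, 12 and 24 counts with Guide1 and 0, 0 and 2 with Guide2, where the controls stood at 1.05 to 3.85 CPM. STAP1, a signalling adaptor of B cells, went the other way, at 1.32, 2.06 and 1.86 CPM against 5.72, 10.5 and 6.46 (2.02, SE 0.31, edgeR adjusted p = 0.000316).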
